A study of Mus musculus with 7 samples.

Results

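D-type cyclins and the inhibitors of cyclin-dependent kinases (CDKs) are the genes that set whether a cell in G1 phase commits to another division. The 10 genes described here were taken by symbol from the deposited expression table of 24346 genes, and all 10 were found. They are 3 D cyclins (Ccnd1, Ccnd2 and Ccnd3), 3 Cip/Kip inhibitors (Cdkn1a, Cdkn1b and Cdkn1c, which encode p21, p27 and p57) and 4 INK4 inhibitors (Cdkn2a, Cdkn2b, Cdkn2c and Cdkn2d). D cyclins bind Cdk4 and Cdk6, and the active pair phosphorylates the retinoblastoma protein, which then releases E2F transcription factors that drive S-phase genes. INK4 proteins bind Cdk4 and Cdk6 and keep D cyclins from them, whereas Cip/Kip proteins bind cyclin-CDK pairs and block above all those with Cdk2. In the adult dentate gyrus, Ccnd2 is known to be needed for neurogenesis, and p21, p27 and p57 are known for their part in keeping neural stem cells (NSCs) quiescent.

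To ask what loss of Mediator subunit 23 (Med23) does to these cells, the study sequenced RNA of primary neurospheres, which are floating clusters grown from single hippocampal cells in FGF and EGF, from C57/BL6 mice 2 months old. There were 3 libraries from Med23 CKO mice, which are Nestin-CreER mice with loxP sites on both Med23 alleles, and 4 from littermates that the labels call wild type and the methods describe as Med23 flox/+ or flox/flox without Cre. Both groups received tamoxifen at 200 mg/kg for 5 days, for which the labels give the age of 2 months and the methods a younger age for cultures. Each library comes from 1 mouse and is named as the labels do, WT_215, WT_116, WT_213 and WT_220 for control and KO_117, KO_214 and KO_218 for Med23 CKO. The nestin promoter limits recombination to nestin-expressing cells and their descendants, so cells of other origin in a culture should keep Med23. The paper states that endothelial cells also express this Cre, and Med23 was not measured by cell type.

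A floor of 0.5 on the mean FPKM (fragments scaled to transcript length and library size) left 14151 genes, all 10 members among them, which were compared on log2(FPKM + 1) with limma, and fold changes are Med23 CKO minus control on this scale, where low genes show less than their change in FPKM. Med23 itself had 11.4, 10.3, 12.9 and 10.1 FPKM in WT_215, WT_116, WT_213 and WT_220, against 9.97, 9.27 and 8.12 FPKM in KO_117, KO_214 and KO_218. The groups did not overlap for this gene, whose log2 fold change was -0.26 with a standard error of 0.18 (two-sided exact permutation p = 0.0571). The loxP sites flank only some Med23 exons, so this value for the whole gene can include reads of exons that remain. It does not measure the deletion, which the paper reported by qRT-PCR of primary neurospheres and by western blot of hippocampal tissue. The NSC markers Vim, Fabp7, Slc1a3 and Nes were present in every library, with Nes between 61.1 and 240.5 FPKM. The libraries also held markers of other cells. The summed FPKM of 8 oligodendrocyte lineage genes ran from 1191 to 4813 in control and from 693 to 2979 in Med23 CKO. That of 12 microglia and macrophage genes ran from 36.8 to 236 in control. It was 39.6 in KO_117, 172 in KO_218 and 1073 in KO_214. In KO_214 the genes of this list with the highest means, Tyrobp, Cd68, Trem2 and C1qa, had 492, 259, 141 and 50.1 FPKM. Each of these was the highest value of any library. The low genes of this list differed in KO_214. Cx3cr1, whose mean was under the floor, had 0.157 FPKM there and P2ry12 1.24 FPKM, both within the range of the other libraries. Tmem119 had 4.04 FPKM there and at most 0.414 FPKM in any other library. The median log2 fold change was -0.26 for NSC genes, -0.23 for neuroblast and neuron genes, -0.58 for oligodendrocyte lineage genes, 0.86 for microglial genes, 0.49 for endothelial genes and 0.59 for mural and fibroblast genes. In these 6 lists 0 genes had an unadjusted p under 0.05 from limma, and the medians of the last 3 were -0.25, -0.14 and -0.52 without KO_214. The part of these cells in the differences below was not tested, and in bulk RNA fewer cells of a type cannot be told from less RNA per cell.

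Ccnd1 was the highest of the members, at 690 ± 143 FPKM (SD, n = 4) in control, and ranked 99th of all genes by its control mean. Cdkn1a followed with 404 ± 83.3 FPKM and Ccnd2 with 224 ± 99.9 FPKM (SD, n = 4). The control ranges of Ccnd1 and Cdkn1a did not overlap, and Ccnd1 was the higher in 6 of 7 libraries. In KO_214 the order was turned, with 371 FPKM of Ccnd1 and 476 FPKM of Cdkn1a. Ccnd2 was above the next gene, Cdkn2c, in 7 of 7 libraries. Cdkn2c, Cdkn2a, Cdkn1b, Ccnd3, Cdkn2d and Cdkn2b formed a middle group, with control means from 55.9 down to 28.7 FPKM, in which all neighbours had overlapping control ranges. Cdkn1c stood last at 3.77 ± 0.971 FPKM (SD, n = 4), below Cdkn2b in each of the 4 control libraries. FPKM is divided by transcript length, so these levels can be set beside each other between genes.

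**Figure D1:**
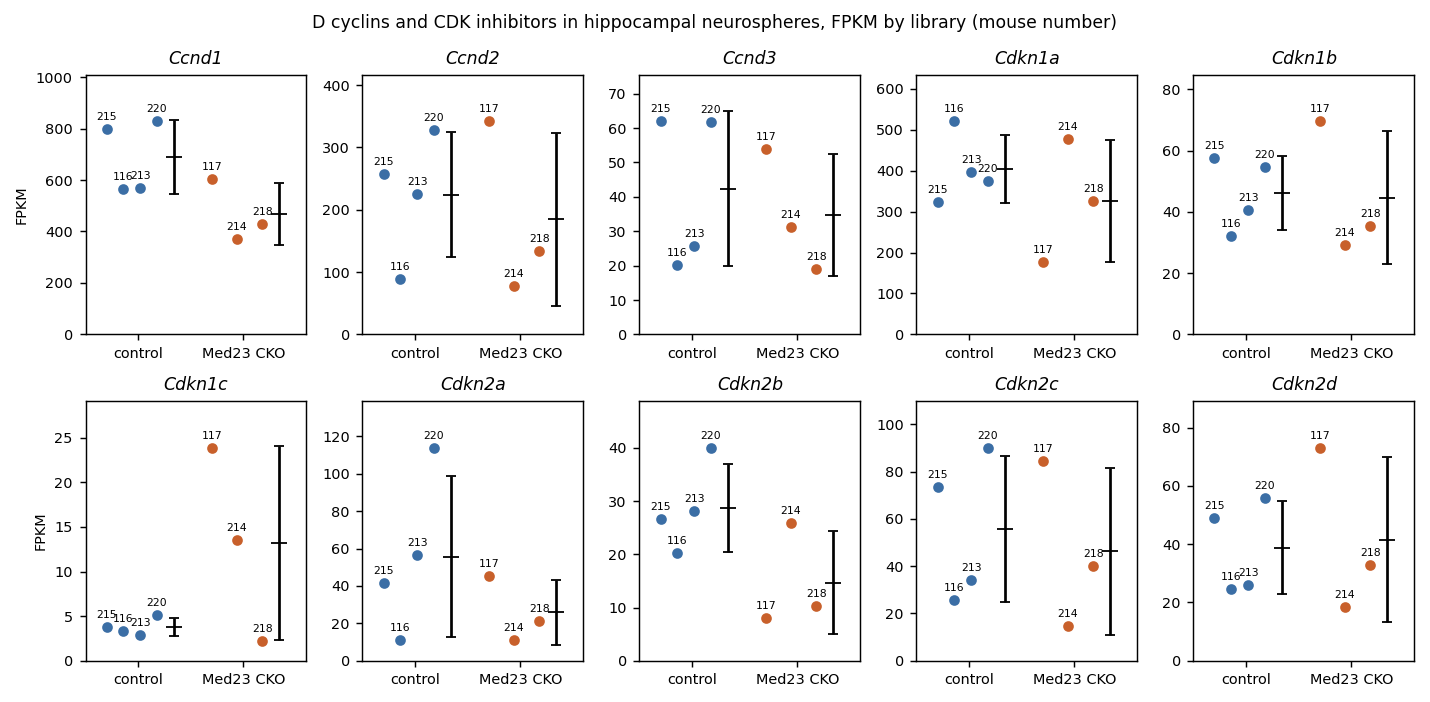
FPKM of the 10 genes in each library, with 1 panel per gene, an axis from 0 in each, control mice in blue, Med23 CKO mice in orange, library numbers above the points, and the group mean with its SD (n = 4 and n = 3) in black. The groups overlap in every panel; Ccnd1 and Cdkn2b each have 2 of 3 Med23 CKO libraries below the control range, and Cdkn1c has 2 above and 1 below it.

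Among the D cyclins, Ccnd1, the member most tied to growth factor signaling (GRCm38 chr7:144929931-144939925, reverse strand), had the largest log2 fold change. It measured 798, 564, 569 and 828 FPKM in WT_215, WT_116, WT_213 and WT_220, against 603, 371 and 430 FPKM in KO_117, KO_214 and KO_218. KO_214 and KO_218 lay below the lowest control, while KO_117 lay between the controls. The ratio of the group means was 0.679 and the log2 fold change -0.57 (standard error 0.25, 95% confidence interval -1.14 to 0.01), which did not pass the threshold (exact permutation test, two-sided, p = 0.171, limma's unadjusted p = 0.0536). Leaving out any 1 library kept the log2 fold change of Ccnd1 between -0.76 and -0.41.

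Ccnd2, the D cyclin of adult neural progenitors (chr6:127125162-127152193, reverse strand), had 257, 89.0, 225 and 327 FPKM in WT_215, WT_116, WT_213 and WT_220, against 342, 78.3 and 134 FPKM in KO_117, KO_214 and KO_218. The highest and the lowest of the 7 values both belonged to Med23 CKO mice, 4.37-fold apart. Its log2 fold change was -0.40 (95% confidence interval -1.78 to 0.98, exact permutation p = 0.6). Ccnd3 (chr17:47505051-47599691, forward strand), the family member best known from blood cells, had 61.9, 20.2, 25.7 and 61.8 FPKM in the controls and 53.8, 31.2 and 18.9 FPKM in Med23 CKO, listed likewise, a log2 fold change of -0.24 (95% confidence interval -1.42 to 0.94, exact permutation p = 0.714).

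Summed over the 3 genes, D cyclin FPKM was 1116, 674, 819 and 1217 in WT_215, WT_116, WT_213 and WT_220, against 999, 480 and 583 in KO_117, KO_214 and KO_218. KO_214 and KO_218 were below the lowest control, as for Ccnd1. Ccnd1 made up 73.2% ± 7.21 of this sum in control (SD, n = 4) and 70.4% ± 8.88 in Med23 CKO (SD, n = 3). The share of Ccnd2 was 22.6% ± 6.58 in control and 24.5% ± 9.06 in Med23 CKO, with its lowest value of 13.2% in WT_116 and its highest of 34.2% in KO_117. Both shares differed between the groups by less than 1 SD of the libraries.

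**Figure D2:**
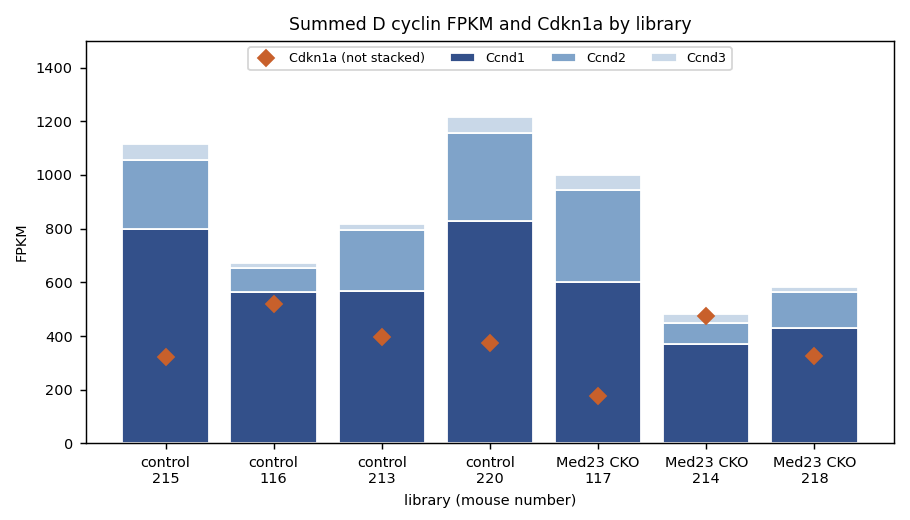
Stacked bars give the FPKM of Ccnd1, Ccnd2 and Ccnd3 in each library, with an axis from 0, and orange diamonds the FPKM of Cdkn1a, not stacked. The sums reach from 480 FPKM in KO_214 to 1217 FPKM in WT_220, and Cdkn1a comes close to the D cyclin sum in KO_214 alone.

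Of the Cip/Kip inhibitors, Cdkn1a, the p53 target that arrests cells after DNA damage (chr17:29090976-29100727, forward strand), had 324, 520, 397 and 374 FPKM in WT_215, WT_116, WT_213 and WT_220, against 178, 476 and 327 FPKM in KO_117, KO_214 and KO_218. KO_117 was the lowest of all 7 libraries and the other Med23 CKO mice lay within the control range. Its log2 fold change was -0.39 (95% confidence interval -1.19 to 0.40, exact permutation p = 0.371), and it was -0.01 without KO_117. Cdkn1b, whose protein p27 is controlled largely by degradation (chr6:134920401-134925513, forward strand), had 57.5, 32.0, 40.7 and 54.8 FPKM in the controls and 69.5, 29.2 and 35.2 FPKM in Med23 CKO, listed likewise. Med23 CKO mice again held both the highest and the lowest value, and the log2 fold change was -0.11 (95% confidence interval -0.91 to 0.68, exact permutation p = 0.8).

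Cdkn1c, a maternally expressed imprinted gene (chr7:143458339-143461050, reverse strand), was the 1 member with a positive log2 fold change, although Cdkn2d too had a slightly higher mean FPKM in Med23 CKO. It had 3.78, 3.33, 2.86 and 5.11 FPKM in WT_215, WT_116, WT_213 and WT_220, against 23.9, 13.6 and 2.17 FPKM in KO_117, KO_214 and KO_218. KO_117 and KO_214 were above every control, whereas KO_218 was below every control. The log2 fold change was 1.16 (95% confidence interval -0.35 to 2.66, exact permutation p = 0.229). Without KO_218 it was 2.02, with both remaining Med23 CKO values above the controls, without KO_117 it was 0.53, and with array weights in limma it was 0.02. KO_117 had the lowest and KO_214 the highest summed level of the microglial list among the Med23 CKO libraries. The summed mural and fibroblast genes were 10.5 FPKM in KO_117 and 537 FPKM in KO_214, and the summed endothelial genes 6.60 and 123 FPKM. The part of these cells in the values of Cdkn1c was not tested.

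The INK4 genes Cdkn2a and Cdkn2b lie side by side on mouse chromosome 4 of GRCm38 (mm10), on the reverse strand, from 89274471 to 89294653 and from 89306299 to 89311039. Cdkn2a has separate starts for the transcripts of p19Arf, which acts on p53, and p16Ink4a, which acts on Cdk4 and Cdk6, and its 1 FPKM value covers both. The 250 bases before each start in this locus are shown because Cdkn2b was the 1 member past an unadjusted threshold and its neighbour starts from a pair of distinct promoters. Capitals mark letters searched on both strands. They are the E2F-type sites TTTCGCGC or TTTGGCGC or TTTCCCGC, the cyclic AMP response element TGACGTCA, the GC box GGGCGG and the CCAAT box. No matches overlapped in the windows shown.
Cdkn2b, chr4:89311033-89311282, reverse strand: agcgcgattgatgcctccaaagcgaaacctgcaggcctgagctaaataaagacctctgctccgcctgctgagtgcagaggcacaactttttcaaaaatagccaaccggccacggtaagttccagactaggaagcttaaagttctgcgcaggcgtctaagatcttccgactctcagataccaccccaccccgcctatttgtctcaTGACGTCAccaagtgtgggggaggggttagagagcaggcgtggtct
Cdkn2a, upstream start, chr4:89294620-89294869, reverse strand: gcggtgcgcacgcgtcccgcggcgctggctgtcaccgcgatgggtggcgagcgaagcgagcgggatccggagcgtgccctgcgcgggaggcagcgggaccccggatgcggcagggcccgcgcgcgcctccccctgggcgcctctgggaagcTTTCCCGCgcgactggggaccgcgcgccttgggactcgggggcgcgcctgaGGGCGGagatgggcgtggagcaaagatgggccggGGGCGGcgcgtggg
Cdkn2a, downstream start, chr4:89282193-89282442, reverse strand: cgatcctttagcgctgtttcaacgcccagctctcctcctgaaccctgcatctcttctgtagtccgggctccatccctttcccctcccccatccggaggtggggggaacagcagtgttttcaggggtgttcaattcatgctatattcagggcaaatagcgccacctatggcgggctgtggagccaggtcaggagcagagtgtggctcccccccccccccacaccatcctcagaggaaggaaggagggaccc
The sequences are those of RefSeq on GRCm38.p6, from a table in which 7 of these 10 genes were matched. The Cdkn2b window held TGACGTCA from 46 to 39 bases before the start, a match found in 1.55% of all 32851 windows of this length. The upstream Cdkn2a window held TTTCCCGC from 99 to 92 bases before the start, and 1.53% of all windows held an E2F-type site. It also held 2 GC boxes, present in 32.7% of all windows, and the downstream window held none of these letters. A match of letters is a description and no evidence that a factor binds.

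Cdkn2b had 26.6, 20.1, 28.0 and 40.0 FPKM in WT_215, WT_116, WT_213 and WT_220, against 7.95, 25.9 and 10.3 FPKM in KO_117, KO_214 and KO_218. KO_117 and KO_218 were far below the lowest control, while KO_214 lay among the controls. The control mean was 28.7 ± 8.28 FPKM (SD, n = 4), that of Med23 CKO 14.7 ± 9.74 FPKM (SD, n = 3). The log2 fold change of -1.05 (standard error 0.41, 95% confidence interval -1.996 to -0.11) had an exact permutation p of 0.0571 and an unadjusted p of 0.0337 from limma (adjusted p = 0.9999). Limma's unadjusted p was above 0.05 without WT_215, WT_213, WT_220, KO_117 or KO_218, between 0.0593 and 0.110. Without KO_214 the log2 fold change was -1.52 and the groups did not overlap, and with each library left out it stayed between -1.52 and -0.73. Cdkn2a had 41.7, 10.8, 56.4 and 114 FPKM in the controls and 45.2, 11.1 and 21.4 FPKM in Med23 CKO, listed likewise. Its control values spread 10.5-fold, from WT_116 to WT_220, and covered all Med23 CKO values. The log2 fold change was -0.88 (95% confidence interval -2.69 to 0.93, exact permutation p = 0.429), and it was -1.50 without WT_116 and -0.40 without WT_220. The paper, which used Cuffdiff on the reads, names Cdkn2a among its downregulated genes, a call that the tests here did not give. The ratio of Cdkn2a to Cdkn2b FPKM ran from 0.538 in WT_116 to 2.85 in WT_220 in control, and from 0.431 in KO_214 to 5.68 in KO_117 in Med23 CKO.

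Cdkn2c, which encodes p18 (chr4:109660876-109667189, reverse strand), had 73.5, 25.7, 34.3 and 90.1 FPKM in WT_215, WT_116, WT_213 and WT_220, against 84.4, 14.6 and 40.1 FPKM in KO_117, KO_214 and KO_218. Cdkn2d, which encodes p19Ink4d (chr9:21288410-21291407, reverse strand), had 49.0, 24.6, 26.0 and 55.8 FPKM in the controls and 73.1, 18.4 and 32.9 FPKM in Med23 CKO, listed likewise. Both were lowest in KO_214 and high in WT_215, WT_220 and KO_117. Their log2 fold changes were -0.41 (95% confidence interval -1.92 to 1.11, exact permutation p = 0.629) and -0.03 (95% confidence interval -1.19 to 1.12, exact permutation p = 0.914).

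Of the 10 members, 9 had a negative and 1 a positive log2 fold change, with a median of -0.40 that was -0.07 without KO_214 and -0.67 without KO_117. Over all 14151 genes tested, 56.2% were negative and the median was -0.03. At an adjusted p under 0.05 from limma, 0 members passed, as did 0% of all genes tested. At an unadjusted p under 0.05, 1 member was lower, Cdkn2b, where 0.996% of all genes were lower, and 0 were higher, where 0.502% were. For 0 members did the groups separate fully, where Med23 CKO lay wholly above control for 0.784% of all genes and wholly below for 1.53%, which makes 2.32%. The intervals of the other 9 members reached from values below no change to values above it, so these libraries set no direction for them and do not show that they were alike.

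**Figure D3:**
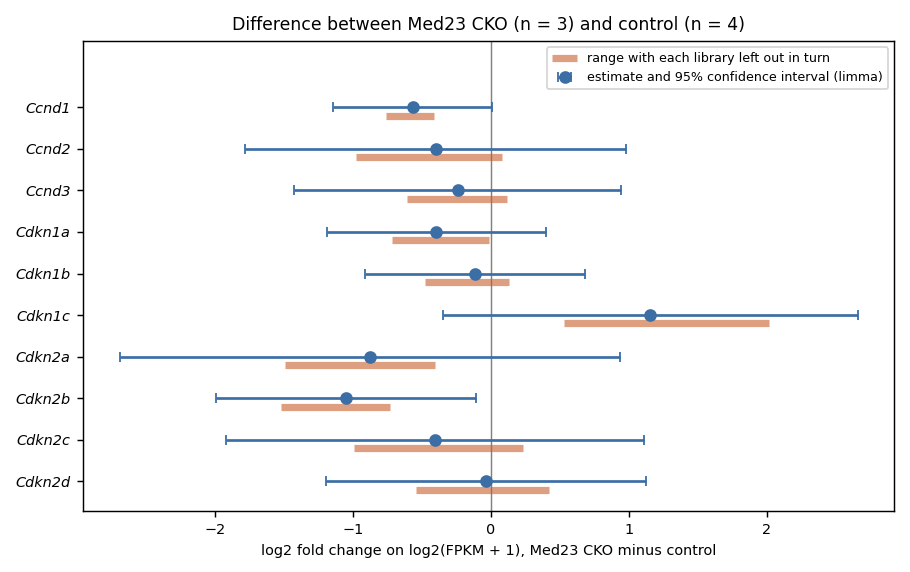
Points are log2 fold changes on log2(FPKM + 1), Med23 CKO minus control, with 95% confidence intervals from limma, and orange bars the range when any 1 library is left out. The interval of Cdkn2b ends at -0.11; those of the other 9 genes cross 0, and the orange bars of Ccnd2, Ccnd3, Cdkn1b, Cdkn2c and Cdkn2d cross 0 too.

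Libraries of the same group differed widely in proliferation genes, and several members had the same order of libraries. The mean log2(FPKM + 1) of 18 proliferation genes was 6.39 in KO_117, 6.06 in WT_220, 5.95 in WT_215, 4.90 in WT_213, 4.86 in KO_218, 4.16 in WT_116 and 3.26 in KO_214. All 18 had a negative log2 fold change and 0 an unadjusted p under 0.05, and their median of -0.46 was 0.33 without KO_214 and -1.28 without KO_117. Mki67, which marks cycling cells, had 60.6, 12.2, 25.1 and 56.6 FPKM in WT_215, WT_116, WT_213 and WT_220, against 86.5, 4.08 and 32.3 FPKM in KO_117, KO_214 and KO_218. Mcm2, a subunit of the replicative helicase, had 69.0, 17.95, 28.5 and 82.1 FPKM in the controls and 96.9, 9.72 and 22.6 FPKM in Med23 CKO, listed likewise. Within the 4 control libraries and within the 3 Med23 CKO libraries, Ccnd1, Ccnd2, Cdkn2c and Cdkn2d had the same order as the proliferation mean. This held for 4 of the 10 members, and for 8.08% of all genes tested. Cdkn1b had that order in Med23 CKO, and in control only WT_215 and WT_220 changed places. The inhibitors p18, p19Ink4d and p27 were thus highest, at the RNA level, in the libraries with the most proliferation RNA. This comparison was chosen after the values were seen.

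Ccnd1 departed from the proliferation genes when libraries of both groups were set side by side. KO_117 had the highest proliferation mean but 603 FPKM of Ccnd1, less than the 798 and 828 FPKM of WT_215 and WT_220. KO_218 and WT_213 had nearly the same proliferation mean, and Ccnd1 was 430 and 569 FPKM in them. WT_116 had a lower proliferation mean than KO_218 but more Ccnd1, 564 FPKM. The shared order within control also rested on the small step of Ccnd1 from WT_213 to WT_116. With the proliferation mean as a covariate in limma, also chosen after the values were seen, the log2 fold change of Ccnd1 was -0.46 (standard error 0.13, adjusted p = 0.733), that of Cdkn1a -0.56 (standard error 0.15, adjusted p = 0.682) and that of Cdkn2b -1.15 (standard error 0.36, adjusted p = 0.850). In the same fit the log2 fold change of Ccnd2 was -0.09 and that of Cdkn2c -0.05.

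**Figure D4:**
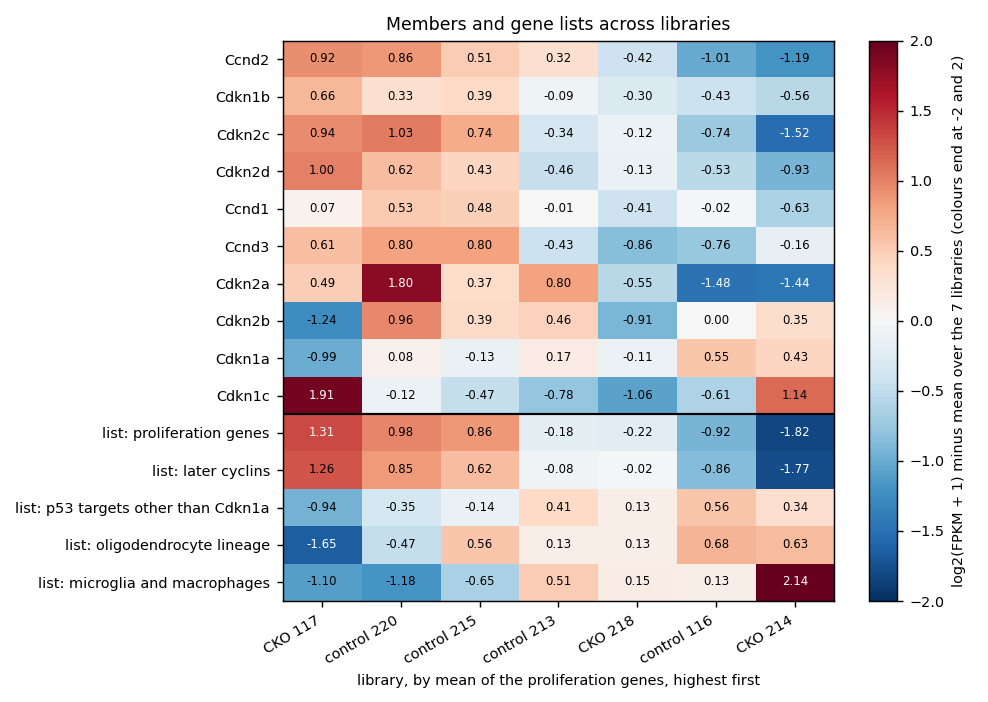
Each cell gives log2(FPKM + 1) of a gene, or the mean over a list, minus its mean over the 7 libraries, with libraries ordered by the mean of the proliferation genes and colours that end at -2 and 2. Ccnd2, Cdkn1b, Cdkn2c and Cdkn2d run from high on the left to low on the right with the proliferation genes, Cdkn1a and the p53 targets are lowest in KO_117, and Cdkn1c is high in KO_117 and KO_214.

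The promoters of the inhibitors that followed the proliferation genes are shown as the 250 bases before the start, with the same letters in capitals.
Cdkn1b, chr6:134920151-134920400, forward strand: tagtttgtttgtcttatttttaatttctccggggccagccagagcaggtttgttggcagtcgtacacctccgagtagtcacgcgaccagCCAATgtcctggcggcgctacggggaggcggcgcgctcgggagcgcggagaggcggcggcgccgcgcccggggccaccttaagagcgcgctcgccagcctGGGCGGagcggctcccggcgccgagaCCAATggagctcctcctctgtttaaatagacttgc
Cdkn2c, chr4:109666757-109667006, reverse strand: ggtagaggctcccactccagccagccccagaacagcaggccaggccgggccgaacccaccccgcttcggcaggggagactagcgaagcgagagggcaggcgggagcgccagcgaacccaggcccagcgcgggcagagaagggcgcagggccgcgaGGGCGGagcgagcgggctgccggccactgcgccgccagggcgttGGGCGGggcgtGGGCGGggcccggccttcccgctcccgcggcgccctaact
Cdkn2d, chr9:21291210-21291459, reverse strand: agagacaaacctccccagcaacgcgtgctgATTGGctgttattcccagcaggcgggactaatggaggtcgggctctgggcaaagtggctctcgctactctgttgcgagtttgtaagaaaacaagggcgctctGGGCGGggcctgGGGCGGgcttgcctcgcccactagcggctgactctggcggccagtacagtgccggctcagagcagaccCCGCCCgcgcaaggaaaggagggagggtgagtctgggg
A further Cdkn2c start, with the window chr4:109665373-109665622, is not shown and held none of the letters searched. Each of the 3 windows shown held GC boxes, 1 for Cdkn1b and 3 each for Cdkn2c and Cdkn2d. CCAAT boxes lay in the windows of Cdkn1b and Cdkn2d, and 33.8% of all windows held one. None of the 3 held the E2F-type letters or TGACGTCA.

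Cdkn1a had another order, with its lowest value in KO_117, and other genes that p53 activates were lowest there too. Of 16 p53 targets other than Cdkn1a, 14 had their lowest value in KO_117, as Cdkn1a did, against 20.6% of all genes tested. This was not particular to p53 targets, since 5 of 8 oligodendrocyte lineage genes and 5 of 8 endothelial genes were lowest there too. KO_117 was singled out after the values of Cdkn1a were seen. Ccng1 had 132, 374, 259 and 79.9 FPKM in WT_215, WT_116, WT_213 and WT_220, against 51.4, 266 and 280.5 FPKM in KO_117, KO_214 and KO_218. Mdm2, the ubiquitin ligase that limits p53, had 67.2, 187, 139 and 40.5 FPKM in the controls and 33.99, 177 and 118 FPKM in Med23 CKO, listed likewise. The oligodendrocyte marker Mbp was low in KO_117 and WT_220, where Ccng1 and Mdm2 were lowest, with 66.5 and 238 FPKM against 838 to 2234 in the other 5 libraries, and the part of these cells was not tested. Of the 16 targets, 15 had a negative log2 fold change, with a median of -0.29 that was 0.00 without KO_117. At an unadjusted p under 0.05, 1 was lower and 0 higher. That gene, Bbc3, which encodes the apoptotic protein Puma, averaged 18.1 ± 3.85 FPKM in control (SD, n = 4) against 10.7 ± 3.74 FPKM in Med23 CKO (SD, n = 3). Its log2 fold change was -0.73 with a standard error of 0.26 (limma's adjusted p = 0.9999), and its unadjusted p lay between 0.0618 and 0.0843 without WT_220, KO_117 or KO_218. Bax, with 361 ± 68.2 FPKM in control and 284 ± 28.4 FPKM in Med23 CKO, had groups that did not overlap, and so had Zmat3 and Aen, which were named after their values were seen, so that 3 of 16 targets stood below control where 1.53% of all genes did.

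Genes of the pathway around the members gave 0 calls at an adjusted p under 0.05 from limma. Of 8 CDK partners, 3 had a positive and 5 a negative log2 fold change, with a median of -0.01, and at an unadjusted p under 0.05 limma called 0 of them. Cdk4, the kinase that D cyclins activate, had 326, 148, 194 and 392 FPKM in WT_215, WT_116, WT_213 and WT_220, against 415, 103 and 163 FPKM in KO_117, KO_214 and KO_218. Cdk6 was far lower and varied widely, from 0.382 FPKM in WT_116 to 5.54 FPKM in KO_214. Cdk4 had the library order of Ccnd2, with KO_117 highest and KO_214 lowest. Of 13 genes of the Rb family and E2F factors, 10 were negative and 3 positive with a median of -0.12, and of 7 later cyclins 6 were negative and 1 positive with a median of -0.46. In neither list did a gene have an unadjusted p under 0.05. The median of the Rb and E2F list was 0.14 without KO_214 and -0.40 without KO_117, and that of the later cyclins 0.60 and -1.28, so the sign of both rested on which of these libraries was kept. The median of the CDK partners was 0.05 without KO_214.

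Of 11 genes for the turnover of p27 and D cyclins, 8 were negative and 3 positive (median -0.04). Skp2, the ubiquitin ligase subunit that marks p27 for degradation, averaged 9.38 ± 4.35 FPKM in control (SD, n = 4) against 8.94 ± 7.74 FPKM in Med23 CKO (SD, n = 3), and its cofactor Cks1b had 62.5 ± 31.0 and 63.8 ± 56.0 FPKM. Of 10 Foxo, Smad and Myc regulators, 6 were negative and 4 positive (median -0.08), and of 12 regulators of the Cdkn2a locus 7 were negative and 5 positive (median -0.05). The medians of the latter 2 lists were 0.11 and 0.02 without KO_218. Myc, a factor that can activate Ccnd2, averaged 49.3 ± 32.3 FPKM in control (SD, n = 4) and 29.2 ± 22.0 FPKM in Med23 CKO (SD, n = 3). The paper names Myc too among its downregulated genes. In these 3 lists, 0 genes had an unadjusted p under 0.05. Ezh2, a Polycomb enzyme that silences Cdkn2a, had 43.5, 18.1, 27.03 and 43.2 FPKM in WT_215, WT_116, WT_213 and WT_220, against 56.2, 9.78 and 25.1 FPKM in KO_117, KO_214 and KO_218. Ezh2 and Cdkn2a had their 4 highest values in the same libraries, WT_215, WT_213, WT_220 and KO_117. These are also the 4 libraries with the highest proliferation means, and a link between the 2 genes was not tested.

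The genes whose profiles over the 7 libraries were most like a member were found by the root mean square difference of log2(FPKM + 1), each gene centred on its own mean. For Ccnd1 they were Jarid2 (difference 0.109), Slc27a6 (0.110) and Dtd1 (0.118), beside a spread of Ccnd1 itself of 0.392. For Ccnd2 they included Skp2 (0.123) and A730008H23Rik (0.137), beside a spread of 0.807. For Cdkn1a they were Slc35a2 (0.127), Kctd13 (0.131) and Rcan2 (0.134), beside a spread of 0.468. For Cdkn1c the nearest were Loxl2 (0.472), Lrp5 (0.477) and Pdlim3 (0.511), at larger differences beside a spread of 1.02. Among the members, the profile nearest to Ccnd2 was that of Cdkn2c (0.334), and the one nearest to Ccnd1 was that of Cdkn1b (0.290). Neither was close among all genes tested, where Cdkn2c ranked 317th for Ccnd2 and Cdkn1b 1567th for Ccnd1.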

How the data were processed

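RNA-seq of hippocampal neurospheres was available for 7 libraries, 4 control and 3 Med23 CKO, grouped by their sample titles. The authors removed adapters, aligned reads to mm10 with TopHat and deposited FPKM per gene and library from Cuffdiff. The deposited table also holds group means and the authors' own comparison as a log2 fold change, a test score, a p-value and a q-value, none of which was used. Low FPKM values lay on no steps of whole fragments (the fullest 0.05 log2 bin of the ratios held at most 3.67% of low genes in any of 21 library pairs), so the depth is unknown and no counting error can be given; with 4 and 3 libraries, precision is limited by their number. The library kit and the alignment defaults that the authors name keep no strand, and on GRCm38 other annotated genes overlap Ccnd1, Ccnd2, Ccnd3, Cdkn1a and Cdkn1c, so reads in the overlaps cannot be told apart.

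Genes averaging 0.5 FPKM or more were compared as log2(FPKM + 1) by limma 3.58.1 in R 4.3.3 (lmFit, eBayes with trend) with Benjamini-Hochberg adjustment over 14151 genes, and single genes by an exact permutation test of the group labels (35 assignments, smallest p 0.0286). Each library is 1 mouse, and the p-values measure the spread between these cultures. The members and gene lists were chosen with earlier results of these data known. Genes named are Med23, the members, genes of each list with an unadjusted p under 0.05 or among its 4 highest means, Mki67 and Mcm2, and the 3 nearest profiles of Ccnd1, Ccnd2, Cdkn1a and Cdkn1c, of which 1 is not reported here. Cdk6, Cx3cr1, P2ry12, Tmem119, Zmat3 and Aen were added after their values were seen. The code was tested on simulated data. Alternatives were a pseudocount of 0.1, no filter, a floor of 1 on the mean FPKM, quantile normalization, median centring, limma without trend, with robust empirical Bayes (statmod 1.5.0) or array weights, the leading digit of the mouse number as covariate, and each library left out. A covariate for proliferation genes was added after the data were seen. Promoters are from RefSeq (GRCm38.p6), gene coordinates from GENCODE M21 (GRCm38).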

Additional observations from a re-analysis of the deposited data

How the results depend on the processing

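No analysis paired by litter was possible, because the labels do not name the litter of each mouse. The count of members at an adjusted p under 0.05 was 0 under every alternative run. The count of members lower at an unadjusted p under 0.05, which was 1 (Cdkn2b), was 2 (Ccnd1 and Cdkn2b) with quantile normalization, with robust empirical Bayes and with array weights, 3 (Ccnd1, Cdkn1a and Cdkn2b) with the mean of the proliferation genes as covariate, and between 0 and 3 with each library left out. Over all 14151 genes, 141 were lower in the reported fit, 123 with quantile normalization, 137 with robust empirical Bayes, 887 with array weights and 452 with the proliferation covariate. The member count was 3 without WT_116 (Ccnd1, Cdkn2a and Cdkn2b), where 201 of 14110 genes tested were lower. It was 0 without WT_215, WT_213, WT_220 or KO_218, where 78, 99, 74 and 71 of the genes tested were lower. The count of members higher was 0, or 1 (Cdkn1c) without KO_218, a range of 0 to 1. Without KO_218, 139 of 14146 genes tested were higher, and 71 of 14151 in the reported fit. The count of members with groups that did not overlap, which was 0, was 1 (Ccnd1) with quantile normalization and 0 to 1 with each library left out. The members were Ccnd1 without KO_117, Cdkn2b without KO_214 or WT_116, and Cdkn1c without KO_218. Groups separate more readily with fewer libraries, and the share of all genes that did so in these runs is not given. The log2 fold change had either sign with each library left out for Ccnd2 (-0.98 to 0.081), Ccnd3 (-0.61 to 0.12), Cdkn1b (-0.48 to 0.14), Cdkn2c (-0.99 to 0.24) and Cdkn2d (-0.54 to 0.42), and with the proliferation covariate it was 0.059 for Cdkn1b and 0.23 for Cdkn2d. It kept its sign under every alternative run for Ccnd1, Cdkn1a, Cdkn1c, Cdkn2a and Cdkn2b, although that of Cdkn1c was 0.02 with array weights. The difference in log2 of the summed Cip/Kip FPKM was -0.28, and 0.22 as a mean of log2(FPKM + 1) over these genes, in which Cdkn1c counts as much as Cdkn1a. Of the lists, the median of neuroblast and neuron genes ranged from -0.45 to 0.067 and that of oligodendrocyte lineage genes from -1.21 to 0.46 with each library left out. The cause of these changes was not tested.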

Other observations

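The balance of D cyclins to Cip/Kip inhibitors, as summed FPKM, was 2.90, 1.21, 1.86 and 2.80 in WT_215, WT_116, WT_213 and WT_220, against 3.68, 0.926 and 1.602 in KO_117, KO_214 and KO_218. The ratio of Ccnd1 to Cdkn1a alone was 2.46, 1.09, 1.43 and 2.21 in the controls and 3.39, 0.780 and 1.32 in Med23 CKO, listed likewise. In both ratios the extremes of all 7 libraries were KO_117 and KO_214, and the control mice lay between them. The ratio of Ccnd1 to Ccnd2 was highest in WT_116, at 6.34, and lowest in KO_117, at 1.76. The summed INK4 FPKM was 191, 81.2, 145 and 300 in WT_215, WT_116, WT_213 and WT_220, against 211, 70.0 and 105 in KO_117, KO_214 and KO_218. These values are given without a test.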
